A study of Homo sapiens with 5 samples.

Results

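The comparison described here set HL60 cells carrying an antisense vector against miR-378a-3p (ZIP, 2 libraries) beside HL60 cells carrying the control vector (SCR, 2 libraries), across every counted gene. These 4 libraries are all the vector-bearing samples among the 5 in the series, and they were taken by their titles. The fifth, a single library of untransduced HL60 cells, entered no test and is given as a reference value. HL60 is a human promyelocytic leukaemia line, here from ATCC. Both vectors were pGreenPur lentivectors that carry green fluorescent protein and puromycin resistance. Cells were spun with virus (multiplicity of infection 20, polybrene 8 µg/mL) and selected with puromycin at 2 µg/mL from day 3 to day 8. ZIP encodes a hairpin meant to yield the full-length antisense of miR-378a-3p. The labels call the control vector a scramble in one place and an empty vector in another, so whether SCR carries a hairpin at all is not settled by them. The untransduced cells had neither virus nor, as far as the labels say, puromycin. Nothing says that the 2 libraries of a group came from separate cultures or transductions, so every p-value below measures the spread between libraries, which may be technical.

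MicroRNAs guide Argonaute proteins to messenger RNAs, mainly through pairing of the seed, a short stretch near the microRNA's 5′ end, with sites in 3′ untranslated regions, and the usual outcome is less RNA and less protein from the paired transcript. An antisense strand that occupies the microRNA would, if it works, relieve that effect. miR-378a sits in an intron of PPARGC1B, a gene for a coactivator of mitochondrial and lipid metabolism. HL60 cells are arrested at the promyelocyte stage, when primary granule proteins are made, and can be pushed towards neutrophils or towards monocytes by different agents.

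The mature arm that ZIP addresses is printed first, followed by those other human microRNAs that share its seed and have a mature entry in the RefSeq table used (GRCh38.p14), which is not a complete list, since an antisense strand or a seed site could meet any of them. Capitals mark the seed, bases 2 to 8 from the 5′ end. The target arm lies at chr5:149732867-149732888 on the plus strand.
hsa-miR-378a-3p: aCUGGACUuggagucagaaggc
hsa-miR-378b: aCUGGACUuggaggcagaa
hsa-miR-378c: aCUGGACUuggagucagaagagugg
hsa-miR-378f: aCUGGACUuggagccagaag
hsa-miR-378h: aCUGGACUuggugucagaugg
hsa-miR-378i: aCUGGACUaggagucagaagg
hsa-miR-422a: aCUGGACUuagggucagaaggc
The other arm of the same hairpin has another seed and is shown to set the arms apart.
hsa-miR-378a-5p: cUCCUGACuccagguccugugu
The mature microRNA was not measured in these libraries. The gene entry for its hairpin, MIR378A (chr5:149732825-149732890, GENCODE 29), held 0 and 0 counts in SCR, 0 and 2 in ZIP and 0 in untransduced cells, so its level cannot be read from them. PPARGC1B, the host gene (chr5:149730298-149855022), stood at 48.6 and 51.2 counts scaled to library size (CPM) in SCR, 67.4 and 67.5 with ZIP and 40.7 in untransduced cells. Both ZIP libraries were above both SCR libraries (log2 fold change 0.44 ± 0.04, standard error; adjusted p = 6.5e-09).

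The deposited table held between 24406580 and 30925067 counts a library over 51055 gene identifiers, of which 14643 passed a filter on low counts and were tested. In a single library 3 counts corresponded to between 0.0978 and 0.126 CPM, the top value being that of the untransduced library. For a gene with no count in a group the floor was 3 counts over both libraries of the group, which is lower in CPM. Libraries of a group were close to each other: the median absolute log2 difference was 0.0664 within SCR and 0.0723 within ZIP, and 170 and 204 genes differed by at least 2-fold within the pair. The promyelocyte markers MPO, ELANE, PRTN3, CTSG and AZU1 were all well detected. Haemoglobin genes HBA1 and HBB, the B-cell gene MS4A1, the platelet gene PPBP, KRT19 and COL3A1 were at 0 in every library. Other markers of the same cell types were counted. Erythroid markers summed to 20.2 and 16.4 CPM in SCR and 7.85 and 7.39 in ZIP. In SCR the sums were 3.74 and 3.69 for megakaryocyte, 3.19 and 2.99 for B-cell, and 2.13 and 2.88 for epithelial and fibroblast markers.

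Most tested genes differed between the groups, the majority of them by less than 2-fold. At an adjusted p under 0.05 (edgeR's quasi-likelihood test, Benjamini-Hochberg adjustment over all 14643 genes), 9571 genes differed between ZIP and SCR, which is 65.4% of those tested: 4712 (32.2%) were higher in ZIP and 4859 (33.2%) lower. Genes that also changed by at least 2-fold numbered 458 (3.13%) higher and 1610 (11.0%) lower. At 4-fold the split was 56 against 652. Against a null of at most a 2-fold change (edgeR's glmTreat) 8.04% passed, 151 genes (1.03%) as higher and 1027 (7.01%) as lower; 14.1% had passed with an estimate of at least 2-fold. The near-even split of all calls depends on the TMM scaling, which centres the genes: with library totals 4026 were higher and 5492 lower. Falls outnumbered rises at 2-fold with either scaling, with 394 higher and 1707 lower by library totals. The median log2 fold change over all tested genes was -0.0018, and the gene groups below are set beside it. This background varied with level. From the lowest to the highest of 5 equal bins by mean CPM the median was -0.10, -0.15, -0.01, 0.04 and 0.08. In the highest bin 51.4% of genes were higher and 32.4% lower, and in the bin next to the lowest 20.8% and 39.5%. Groups of highly or thinly expressed genes thus have different backgrounds, which was not adjusted for.

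**Figure D1:**
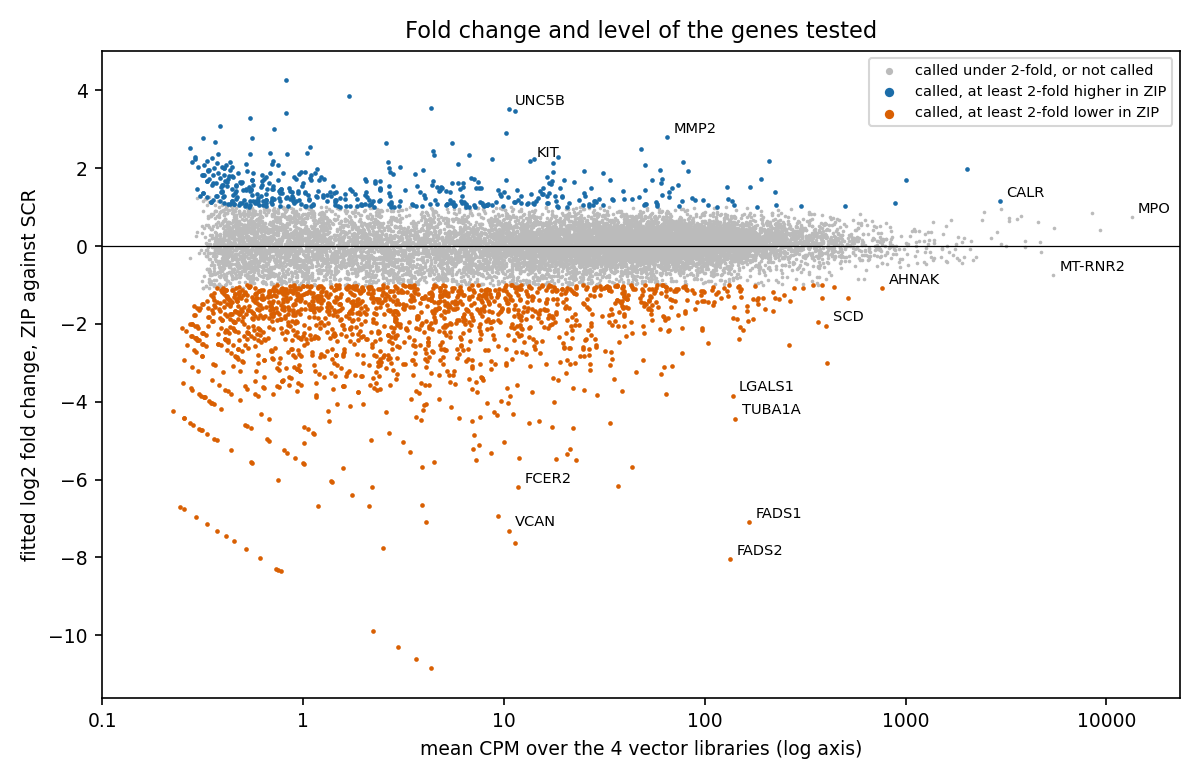
Each point is 1 of the 14643 tested genes, with its mean CPM over the 4 vector libraries on a log axis and its log2 fold change, ZIP over SCR, on the vertical axis; colours give the call. Large falls outnumber large rises (1610 against 458 at 2-fold or more) and concentrate at low levels, though the mean level includes the fall itself. The points far below the rest are genes without a count in ZIP, whose fitted value depends on the prior count.

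Large changes were more frequent among thinly expressed genes. This link is partly built in. The level is the mean of both groups, so a fall lowers it, and at low counts only large changes can be called. When tested genes were ranked by mean level and cut into 5 equal bins, 20.5% of the lowest bin (0.226 to 1.48 CPM) had fallen at least 2-fold, 8.02% of the middle bin and 2.36% of the highest (82.2 to 13381 CPM). The same shares for rises of at least 2-fold were 7.48%, 2.08% and 0.751%. The genes at least 2-fold lower in ZIP took 4.15% and 4.11% of all counts in SCR, 1.29% and 1.29% in ZIP and 1.32% in untransduced cells. The genes at least 2-fold higher took 0.766% and 0.768% in SCR, 1.94% and 1.92% in ZIP and 1.67% in untransduced cells. For both sets, chosen on ZIP and SCR alone, the summed share in the untransduced library was closer to ZIP than to SCR; with 1 such library this has no replicate check.

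To see whether genes that could pair with the microRNA moved apart from others, the annotated 3′ untranslated regions of all protein-coding transcripts (GENCODE 29) of 12067 tested genes were searched for the seed match, AGTCCAGA (the 8mer), AGTCCAG (7mer-m8) or GTCCAGA (7mer-A1). Of 445 genes with an 8mer, 172 (38.7%) were higher in ZIP and 158 (35.5%) lower, with a median log2 fold change of 0.03. Of 1312 genes whose best site was a 7mer-m8, 439 (33.5%) were higher and 506 (38.6%) lower, with a median of -0.04. Of 708 with a 7mer-A1 the numbers were 266 and 260 and the median -0.01. Of 9602 genes with no such site, 3297 (34.3%) were higher and 3512 (36.6%) lower, with a median of -0.01. The classes thus differed by hundredths of a log2 unit and in no single order. Genes with 1, 2 and at least 3 sites had medians of -0.02, -0.0021 and 0.06. Where only genes whose mean reached 10 CPM in either group were kept, those with an 8mer had a median of 0.07 and those without a site 0.03. Untranslated regions with sites were longer (median 3210 bases for the 8mer class, 1108.5 without a site), and a split by length is given in the closing section.

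**Figure D2:**
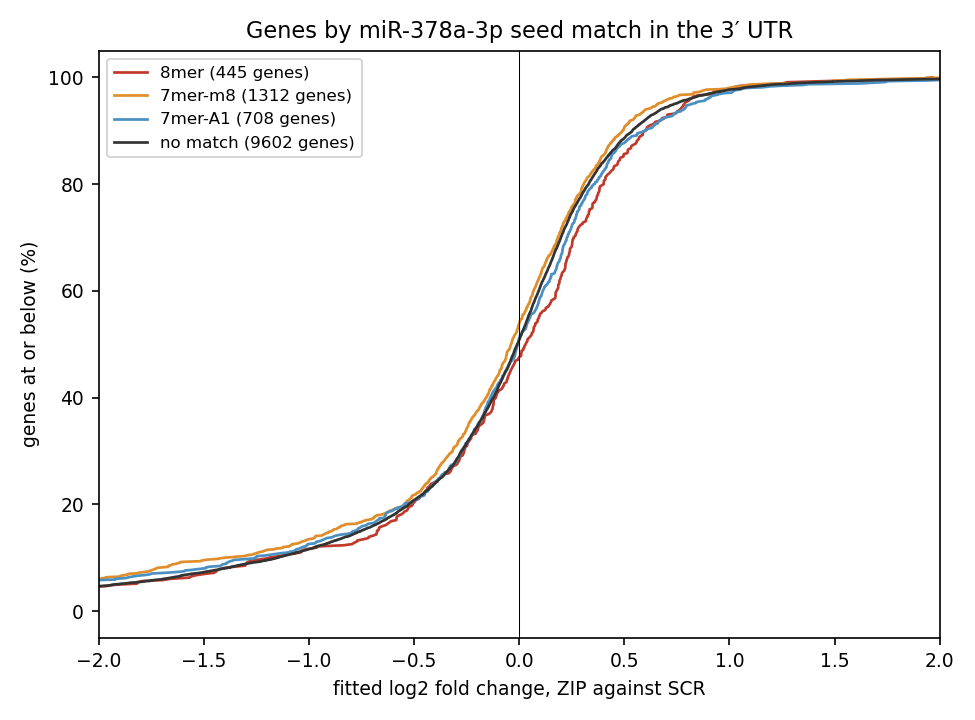
Cumulative percentage of genes (vertical axis) at or below a given log2 fold change, ZIP over SCR (horizontal axis), for genes with an 8mer (445), a 7mer-m8 (1312), a 7mer-A1 (708) or no match (9602) to the miR-378a-3p seed. The 4 curves lie nearly on each other, with medians between -0.04 and 0.03.

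Among 26 genes reported in other systems as targets of the microRNA, 21 were tested, 9 were higher and 7 lower, and the median was 0.05; with library totals in place of TMM scaling only 4 were higher and the median was below 0. Sites found in some of these genes are shown so that the seed match can be seen beside each gene's change; capitals mark the match, positions count from the first base of the 3′ untranslated region of the transcript used (GENCODE 29), and the genes were picked for having such a site.
IGF1R, base 370: aaaataattgccacaAGTCCAGctgg
IGF1R, base 5590: tcaatagggctcttaAGTCCAGtaga
GRB2, base 1083: aataagttaaaggcAGTCCAGAgctt
KSR1, base 1435: gcttgggcgtcctggAGTCCAGtaat
CASP9, base 701: tgaattcttccttcAGTCCAGAgaac
ATG12, base 449: ctgaatacctcaaatAGTCCAGtaga
BMP2, base 524: agttcacaagttcaAGTCCAGAaaaa
TOB2, base 2506: gaatggaaactgttAGTCCAGAatga
IGF1R, the receptor for insulin-like growth factors, with 2 sites of the 7mer-m8 class, read 61.2 and 60.3 CPM with SCR, 97.1 and 97.3 with ZIP and 89.0 in untransduced cells, so both ZIP libraries were higher (log2 fold change 0.68 ± 0.03). BMP2, a secreted bone morphogenetic protein with an 8mer, read 3.90 and 3.62 CPM with SCR and 0.587 and 0.743 with ZIP, and no count in untransduced cells. ZIP was lower in both libraries (-2.51 ± 0.26). KSR1, a scaffold for the RAF and MEK kinases, went from 48.3 and 49.5 CPM to 25.7 and 26.3 (-0.91 ± 0.05), and ATG12, which is conjugated to ATG5 in autophagy, from 43.0 and 44.7 to 27.2 and 26.9 (-0.69 ± 0.05). The initiator caspase gene CASP9 was also lower (-0.68 ± 0.10). GRB2, the adaptor between receptors and RAS, was higher by only 0.09, and TOB2, an antiproliferative protein, did not pass (0.06; adjusted p = 0.2). Genes with the same kind of site moved in both directions.

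Outside the groups of genes treated below, the falls past 2-fold took in several abundant or well-known transcripts. VCAN, the matrix proteoglycan versican, was at 20.8 and 21.2 CPM in the SCR libraries and 0.163 and 0.0825 with ZIP (-7.31 ± 0.52). SPP1, the secreted phosphoprotein osteopontin, was at 74.2 and 71.3 in SCR and 0.912 and 1.11 with ZIP, and at 1.22 in untransduced cells (-6.17 ± 0.18). The SCR values stood far above the others for both. The small GTPase gene RHOB fell from 86.0 and 83.6 CPM to 1.70 and 1.57 (-5.69 ± 0.14; adjusted p = 8.0e-22), its relative RHOC from 14.4 and 13.8 to 0.391 and 0.206 (-5.49 ± 0.35), and KLF2, a zinc finger factor of quiescent leukocytes and endothelium, from 45.0 and 44.9 to 1.17 and 0.743 (-5.51 ± 0.20). In untransduced cells these 3 genes were at 0.586, 0.712 and 0.461 CPM, nearer to ZIP than to SCR. The membrane protein gene EMP1 fell by a similar amount (39.8 and 43.7 CPM against 1.17 and 1.03; -5.22 ± 0.19), as did HELZ2, a helicase that coactivates nuclear receptors (-5.44 ± 0.27), and the long noncoding RNA OLMALINC (-5.21 ± 0.34). Among highly expressed genes AHNAK, which encodes a giant scaffold protein, had 1030 and 1054 CPM with SCR, 491 and 486 with ZIP and 78.0 in untransduced cells (-1.09 ± 0.02), so here ZIP lay between the other groups.

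The 4 genes SIGLEC1, CD69, IL1R2 and EPSTI1, each with at least 100 counts over the SCR libraries, had no count in ZIP. Set against a floor of 3 counts over the 2 libraries, they were at least 159-fold (SIGLEC1, a sialic acid receptor of macrophages), 134-fold (CD69, a lectin of activated leukocytes), 109-fold (IL1R2, the decoy receptor for interleukin 1) and 81.3-fold lower (EPSTI1, an interferon-responsive gene).

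The rises were smaller and fewer. UNC5B, a netrin receptor, rose from 1.77 and 1.59 CPM to 19.5 and 19.2 (3.53 ± 0.15), with 20.5 in untransduced cells. SDK2, a cell adhesion protein of the immunoglobulin superfamily, rose from 14.7 and 14.2 to 79.7 and 83.8 (2.50 ± 0.06), with 36.8 untransduced. For SDK2 both ZIP libraries were above every other library, whereas for UNC5B ZIP and untransduced cells were alike and SCR was low. DST, which encodes the cytolinker dystonin, stood at 27.9 and 29 CPM with SCR and 28.1 in untransduced cells but at 122 and 132 with ZIP (2.16 ± 0.05). CREB5, a transcription factor that binds cyclic AMP response elements, rose from 4.84 and 5.09 to 22.7 and 23.9 (2.23 ± 0.10), and PALD1, a phosphatase-like protein, from 18.5 and 19.8 to 79.2 and 83.1 (2.08 ± 0.05). CD320, the receptor for transcobalamin-bound vitamin B12, rose from 3.47 and 2.68 to 14.3 and 14.4 (2.23 ± 0.13); it was highest in untransduced cells, at 38.2 CPM. Among the 10 largest rises in mean CPM, 2 were in genes that are neither granule nor mitochondrial, CALR and P4HB, both chaperones of the endoplasmic reticulum: calreticulin went from 1831 and 1852 to 4067 and 4056 CPM (1.14 ± 0.01) and the disulfide isomerase P4HB from 2769 and 2783 to 4826 and 4693 (0.78 ± 0.01).

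Lipid genes beyond the cholesterol pathway were among the strongest falls. Of 18 tested genes of fatty acid desaturation, elongation and activation, 14 were lower and 1 higher, 7 of the 14 by at least 2-fold, with a median of -0.72. FADS1, the desaturase that makes arachidonate, was at 325 and 335 CPM with SCR, 2.35 and 2.52 with ZIP and 15 in untransduced cells (-7.08 ± 0.10; adjusted p = 6.1e-26). FADS2, the desaturase of the step before it in that pathway, was at 271 and 262 in SCR, 1.27 and 0.660 with ZIP and 13.1 untransduced (-8.04 ± 0.19; adjusted p = 1.0e-24). The SCR libraries were high, and ZIP was below the untransduced library for both. The 2 genes overlap in the annotation, and since strand use in the counting is not given, reads in the shared stretch cannot be told apart. SCD, the desaturase that makes oleate, went from 649 and 649 CPM to 157 and 157 (-2.05 ± 0.03), with 311 untransduced. The acyl-CoA synthetases ACSL1 (-1.24 ± 0.04) and ACSL3 (-1.19 ± 0.03) and the elongase ELOVL5 (-0.80 ± 0.03) fell less. ELOVL3, an elongase of saturated very long chains, was the 1 call in the other direction (0.788 and 0.778 CPM against 1.56 and 1.24); it was lost without ZIP 1.

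In sterol sensing, uptake and efflux, 12 of 18 tested genes were lower and 3 higher (median -0.56). SREBF1, the transcription factor of fatty acid synthesis genes, had 124 and 122 CPM with SCR, 15.6 and 13.4 with ZIP and 87.5 in untransduced cells (-3.07 ± 0.06). ABCA1, the cholesterol exporter induced by liver X receptors, had 28.0 and 29.3 in SCR, 1.21 and 1.32 with ZIP and 13.1 in untransduced cells (-4.50 ± 0.17). For both genes ZIP was the lowest group. INSIG1, which retains the SREBP complex (-2.54 ± 0.03), STARD4, a sterol carrier (-2.06 ± 0.05), and SREBF2, the factor of cholesterol genes (-1.06 ± 0.03), fell too. The 3 genes that rose were the lipoprotein receptors SCARB1 (107 and 103 CPM against 179 and 174; 0.76 ± 0.03) and LRP8 (0.28 ± 0.03) and the SREBP escort SCAP (0.39 ± 0.03).

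**Figure D3:**
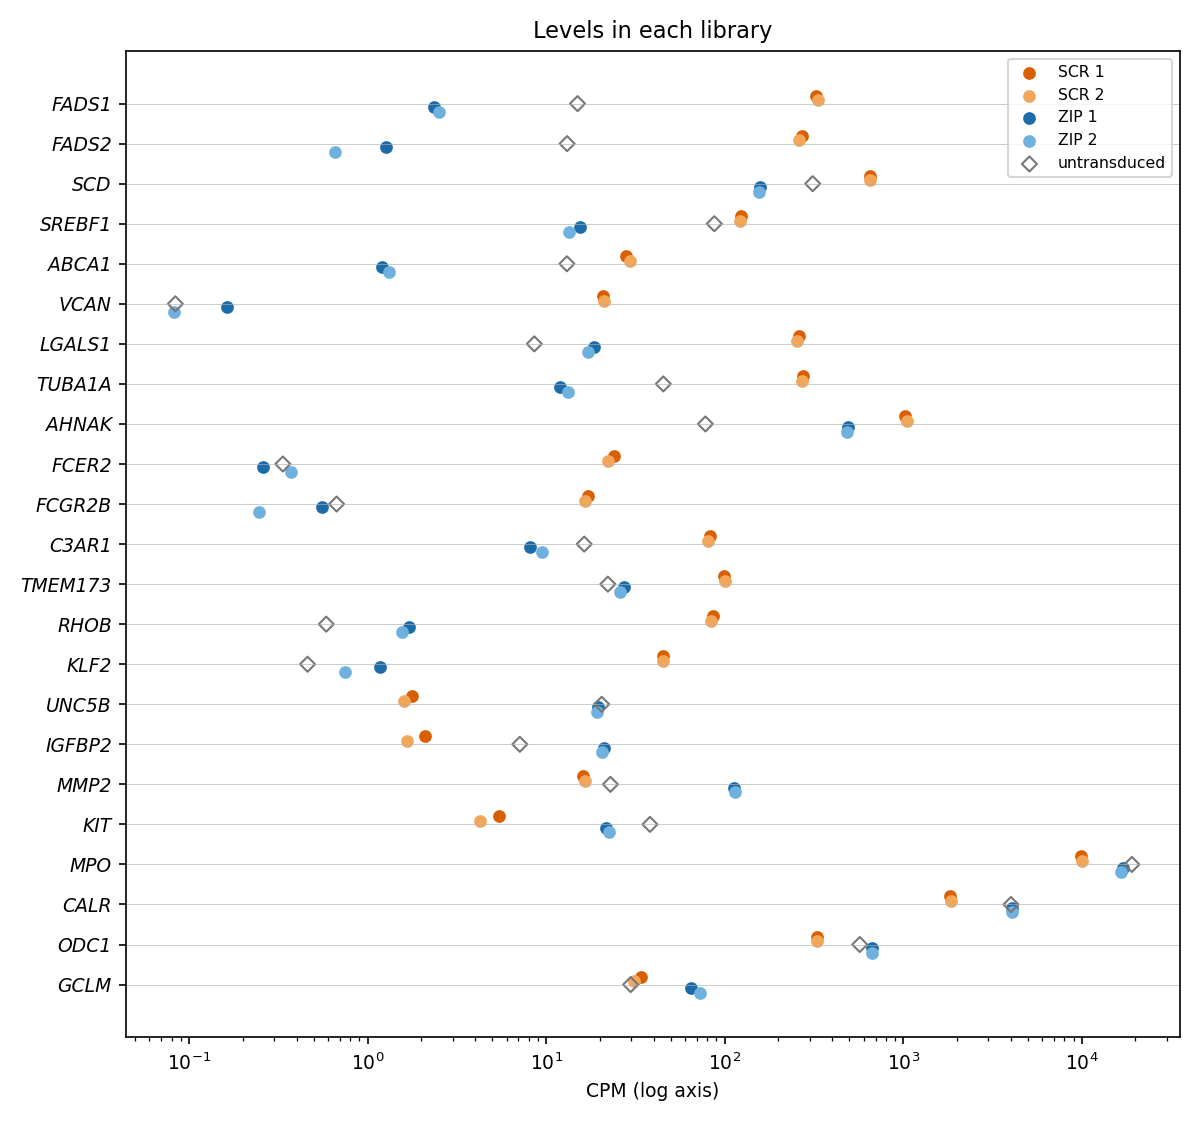
CPM on a log axis for genes named in the text in the 2 SCR, 2 ZIP and 1 untransduced libraries, 1 row a gene and 1 point a library. Replicates lie close together; for FADS1, LGALS1, TUBA1A, C3AR1 and RHOB the untransduced point sits nearer to ZIP than to SCR, while SREBF1 and ABCA1 are lowest in ZIP and MMP2 is highest there.

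Receptors of innate immune cells fell almost throughout. Of 17 Fc, formyl peptide and complement receptor genes listed, 15 passed the filter on low counts and were lower, 13 by at least 2-fold (median -2.64). Some of these passed the filter only through SCR, such as FCER2 (609 and 574 counts with SCR, 8 and 9 with ZIP). The filter thus has a part in this count. FCER2, the low-affinity IgE receptor, went from 24.0 and 22.3 CPM with SCR to 0.261 and 0.371 with ZIP (-6.20 ± 0.34). FCGR2B, the inhibitory IgG receptor, went from 17.2 and 16.4 to 0.554 and 0.248 (-5.31 ± 0.31), though FCGR genes are near-identical copies between which reads may be split. FCER1G, the signalling chain that Fc receptors share, stood at 107 and 108 in SCR and 23.8 and 23 with ZIP (-2.19 ± 0.04). The anaphylatoxin receptors C3AR1 (82.3 and 80.8 CPM against 8.12 and 9.45; -3.22 ± 0.07) and C5AR1 (-3.30 ± 0.20) and the formyl peptide receptor FPR1 (-1.90 ± 0.14) followed. In the untransduced library FCER2, FCER1G and C3AR1 were at 0.335, 26.2 and 16.3 CPM, so all 3 lay closer to the ZIP libraries. In bulk RNA, fewer cells with such a receptor and less of its RNA per cell cannot be told apart.

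Among 11 tested Siglecs, lectins that bind sialic acid and mostly inhibit signalling, 8 were lower and none higher (median -1.13). SIGLEC9 went from 10.3 and 9.88 CPM to 0.847 and 1.40 (-3.20 ± 0.21) and SIGLEC7 from 12.4 and 10.3 to 1.73 and 1.90 (-2.65 ± 0.17). CD33, the Siglec of myeloid progenitors, was at 79.8 and 84.1 CPM with SCR, 82.3 and 83.5 with ZIP and 101 in untransduced cells, and did not pass (adjusted p = 0.65); SIGLEC5 and SIGLEC6 did not pass either. Of 21 tested cytokine receptor genes 18 were lower and 2 higher (median -1.03). The macrophage colony-stimulating factor receptor CSF1R (41.0 and 43.9 CPM against 7.17 and 6.89; -2.59 ± 0.08), the interleukin 10 receptor chain IL10RA (-2.89 ± 0.07) and the tumour necrosis factor receptor TNFRSF1B (333 and 335 against 106 and 102; -1.67 ± 0.03) were among the falls. KIT, the stem cell factor receptor of progenitors and mast cells, rose from 5.43 and 4.28 CPM to 21.7 and 22.6 (2.19 ± 0.11) and was higher still, at 38.2, in untransduced cells. TNFRSF1A, the other rise, gained only 0.12 ± 0.03, and was no longer called with library totals.

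Of 10 tested chemokine system genes 7 were lower and 1 higher (median -1.27). The filter on low counts has a part here too. CXCL16, at 63 and 65 counts with SCR against 9 and 5 with ZIP, passed it only through SCR. The falls included CXCL16, a membrane-bound chemokine (-3.27 ± 0.39), the fractalkine receptor CX3CR1 (-2.83 ± 0.29) and CCR1 (28.5 and 27.4 CPM against 8.80 and 8.29; -1.70 ± 0.08); the rise was CXCR2, the neutrophil receptor for interleukin 8 (18.0 and 18.6 against 24.7 and 26.5; 0.49 ± 0.06). CXCR4, which retains cells in bone marrow, fell from 201 and 218 to 148 and 143 CPM (-0.52 ± 0.03). In leukotriene and prostaglandin synthesis 8 of 12 tested genes were lower and 3 higher (median -0.53). The inducible cyclooxygenase PTGS2 fell (-1.82 ± 0.13) and so did the haematopoietic prostaglandin D synthase HPGDS (-3.00 ± 0.50), whereas ALOX5, the lipoxygenase that starts leukotriene synthesis, rose from 23 and 21.6 CPM to 44.8 and 43.9 (0.99 ± 0.06). Its partner ALOX5AP, the activating protein, fell slightly (-0.36 ± 0.04), so the pair moved apart.

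Marker genes of other cell types moved with these receptors. Of 9 counted monocyte and macrophage markers of the 10 listed, 7 were lower in ZIP and 1 higher; none was at 0 in every library. Their summed level was 1312 and 1322 CPM with SCR, 1448 and 1451 in ZIP and 358 in untransduced cells. That sum is carried by lysozyme, LYZ, which rose (1114 and 1120 CPM against 1390 and 1392; 0.32 ± 0.02), while CD14 (54.6 and 53.5 against 3.49 and 4.17) and FCN1 fell. All 6 promyelocyte markers rose, with sums of 11567 and 11575 CPM with SCR, 22534 and 21886 in ZIP and 24423 in untransduced cells. Of 7 tested markers of eosinophils, basophils and mast cells 5 were lower, 3 without ZIP 1: the eosinophil peroxidase EPX was at 122 and 123 CPM with SCR, 37.7 and 36.2 with ZIP and 409 in untransduced cells, and only PRG2, the major basic protein, rose (0.82 ± 0.05). Of 7 tested neutrophil markers 4 were lower and 1 higher. Few markers of lymphoid, erythroid, megakaryocytic, epithelial or fibroblast cells passed the filter: 2 of 3 tested T and NK markers were lower, 1 of 2 each for B cells, erythroid cells and epithelial cells or fibroblasts, and 1 of 2 megakaryocyte markers was higher. The part of these shifts in the receptor results was not tested.

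The machinery that senses foreign nucleic acids was lower in most parts. Of 14 tested cytosolic sensors and adaptors 10 were lower and 3 higher (median -0.73). STING, listed as TMEM173, the adaptor that answers cytosolic DNA through cyclic dinucleotides, went from 98.6 and 100.2 CPM to 27.3 and 25.9, with 22.2 in untransduced cells (-1.90 ± 0.04). The DNA sensor IFI16 (-1.57 ± 0.06) and the RNA sensor RIG-I, listed as DDX58 (-1.57 ± 0.09), fell by a like amount, and cGAS, listed as MB21D1, by less (-0.65 ± 0.04). MAVS, the mitochondrial adaptor of the RNA sensors (47.3 and 47.5 CPM against 62.1 and 64.4; 0.42 ± 0.04), the kinase TBK1 (0.24 ± 0.04) and the ubiquitin ligase TRIM25 (132 and 131 against 205 and 204; 0.64 ± 0.03) rose. Of 14 tested APOBEC3 and other retrovirus restriction genes, 13 were lower, 10 of them by at least 2-fold, and 1 higher (median -1.59). Some of these passed the filter on low counts only through SCR, so the filter has a part in this count. Examples are IFITM1 (17 and 13 counts with SCR, 0 and 0 with ZIP) and IFITM3 (33 and 37 against 11 and 5). APOBEC3D, at 13 and 10 against 6 and 4 counts, was not tested. They included the cytidine deaminases APOBEC3B (6.89 and 7.35 against 0.619 and 0.619; -3.51 ± 0.25) and APOBEC3G (-2.80 ± 0.33), MX2, which blocks viral capsids (-2.46 ± 0.11), and BST2, which tethers virions (72.0 and 75.7 against 24.7 and 25.8; -1.55 ± 0.05). SERINC5, which is built into virions and lowers their infectivity, rose (5.71 and 4.98 CPM against 11.1 and 10.8; 1.04 ± 0.11), and SAMHD1, the nucleotide hydrolase, fell slightly (214 and 213 against 191 and 194; -0.15 ± 0.03).

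Of 17 tested Toll-like receptor genes and adaptors 10 were lower and 4 higher (median -0.59). TLR8, the endosomal sensor of single-stranded RNA (9.85 and 9.56 CPM against 2.97 and 2.48; -1.82 ± 0.14), TLR2 (-0.86 ± 0.05) and TLR4 (-0.49 ± 0.03) fell, and the signalling kinase IRAK1 rose (329.5 and 328 against 546 and 541; 0.73 ± 0.02) while IRAK2 fell (-3.11 ± 0.23). In antigen presentation by MHC class I, 12 of 18 tested genes were lower and 4 higher (median -0.33). HLA-E was at 386 and 389 CPM with SCR against 145 and 144 with ZIP (-1.42 ± 0.03), and HLA-B at 1482 and 1437 against 1062 and 1056 (-0.46 ± 0.02). These genes are alike in sequence and highly variable, so reads may be misplaced between them. Of 9 tested class II genes 7 were lower, 4 without SCR 1 or without ZIP 1, and none rose; CD74, the invariant chain, went from 195 and 200.3 to 95.2 and 95.7 CPM with 11.1 in untransduced cells (-1.05 ± 0.03).

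The RefSeq promoters (GRCh38.p14, 250 bases before to 50 after each start) were searched on both strands for the letters of 6 regulatory motifs. The interferon-stimulated response element, spelled GAAA, any 2 bases, GAAA, was in 3.65% of all 27305 promoters, in 2.88% of those of 10371 tested genes, in 4.36% of 1146 genes at least 2-fold lower in ZIP, in 5.08% of 453 genes at least 4-fold lower and in 2.60% of 231 genes at least 2-fold higher. The AP-1 letters TGANTCA were in 4.59% of tested promoters, 7.42% of those of the 2-fold lower genes, 9.27% of the 4-fold lower and 6.06% of the 2-fold higher. The NF-kB letters, GGG, any 2 bases, TTTCC, gave 2.16%, 3.05%, 3.09% and 1.73%, and the sterol element TCACNCCAC 1.14%, 1.75%, 1.32% and 1.73%. The other motifs went the other way for the lower genes: the cyclic AMP element TGACGTCA was in 3.21% of tested promoters and 2.18% of the 2-fold lower, and the E-box CACGTG in 10.2% and 6.02%. Promoter GC content was alike (median 65% for tested and 66.0% for 2-fold lower genes). These shares are descriptions with no test, and a match is not a bound site.

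The promoters of 4 genes that fell are shown, 2 with the interferon letters and 2 with the AP-1 letters; capitals mark the matches, each window is the 250 bases before the start, and the strand given is the gene's.
IFI6, chr1:27672193-27672442, minus strand: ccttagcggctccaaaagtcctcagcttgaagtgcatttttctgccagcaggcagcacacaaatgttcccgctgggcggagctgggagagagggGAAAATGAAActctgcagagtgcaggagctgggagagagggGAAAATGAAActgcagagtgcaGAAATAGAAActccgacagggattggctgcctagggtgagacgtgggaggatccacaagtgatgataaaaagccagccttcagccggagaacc
IFIT1, chr10:89392373-89392622, plus strand: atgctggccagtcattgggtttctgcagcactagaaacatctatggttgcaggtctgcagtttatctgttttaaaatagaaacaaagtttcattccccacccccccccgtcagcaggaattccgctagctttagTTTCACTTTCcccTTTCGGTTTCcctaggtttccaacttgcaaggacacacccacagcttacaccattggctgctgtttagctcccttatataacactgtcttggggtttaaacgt
CD14, chr5:140633176-140633425, minus strand: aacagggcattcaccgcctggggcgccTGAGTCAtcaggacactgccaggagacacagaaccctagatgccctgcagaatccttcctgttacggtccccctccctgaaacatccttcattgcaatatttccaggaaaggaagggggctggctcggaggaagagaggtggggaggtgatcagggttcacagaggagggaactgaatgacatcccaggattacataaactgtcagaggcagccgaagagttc
C3AR1, chr12:8066360-8066609, minus strand: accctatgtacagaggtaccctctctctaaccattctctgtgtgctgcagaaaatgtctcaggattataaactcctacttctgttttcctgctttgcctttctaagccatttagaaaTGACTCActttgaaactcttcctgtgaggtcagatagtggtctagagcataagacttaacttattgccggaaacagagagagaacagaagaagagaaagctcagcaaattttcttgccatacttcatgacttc
IFI6, a mitochondrial antiviral protein, has 3 matches and read 43.2 and 41.6 CPM with SCR and 1.37 and 2.02 with ZIP; IFIT1, which binds viral RNA caps, has 2 and read 15.7 and 15.4 against 1.79 and 1.65. CD14, the lipopolysaccharide co-receptor, and C3AR1 have 1 each and fell as given above. These 4 were picked after their values were seen.

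Genes of the AP-1 factors themselves were mostly lower. Of 15 tested members of the JUN, FOS, ATF3, BATF and MAF families 12 were lower and 3 higher (median -1.13). FOSL2 went from 213 and 216 CPM to 59.4 and 60.7 (-1.84 ± 0.03), and JUN from 250.1 and 250.1 to 99.2 and 94.7 (-1.36 ± 0.03). FOSB rose from 5.47 and 5.13 to 11.1 and 11.5 (1.09 ± 0.11), as did MAFK, a small MAF (33.0 and 34.1 against 58.4 and 54.6; 0.76 ± 0.05). Of 19 tested EGR factors and feedback inhibitors of the MAPK pathway 15 were lower and 3 higher (median -0.60). EGR2 (-2.68 ± 0.19), EGR1 (-1.83 ± 0.10) and IER3 (-3.22 ± 0.20) fell, whereas the receptor-pathway inhibitors SPRY1 (10.6 and 11 CPM against 33.2 and 34.4; 1.64 ± 0.07) and SPRY2 (0.61 ± 0.04) and the nuclear phosphatase DUSP2 (0.93 ± 0.06) rose. Among myeloid transcription factors 11 of 14 tested were lower and 2 higher (median -0.48): CEBPB, the factor of monocytic and stress responses, fell from 115 and 113 to 33.4 and 32.9 CPM (-1.78 ± 0.04), and CEBPA, required for granulocyte commitment, rose from 133 and 128 to 190.3 and 188 (0.54 ± 0.03).

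The RAS and MAPK genes themselves showed no common direction: 8 of 20 were higher and 9 lower, with a median of 0.01 that changed sign with library totals, where 5 were higher, and with upper quartile factors. RASGRP2, a calcium-responsive RAP and RAS activator, rose from 132 and 133 CPM to 250.3 and 243 (0.90 ± 0.03), and MAPK3, the kinase ERK1, fell from 36.3 and 33.4 to 16.3 and 15.9 (-1.11 ± 0.06). Of 25 tested TGF-beta, activin and BMP genes 14 were lower and 7 higher (median -0.22), with 4 higher without SCR 2 or with library totals. TGFBI, a secreted protein induced by TGF-beta, fell (15 and 13.3 CPM against 1.40 and 1.28; -3.38 ± 0.18), TGFB1 itself fell (129.6 and 131 against 69.9 and 68.0; -0.92 ± 0.03), and the SMAD repressor SKIL rose (16.6 and 17.8 against 33.2 and 32.6; 0.94 ± 0.06). In the insulin-like growth factor axis 6 of 12 were lower and 4 higher (median -0.15), the rises being near the 32.2% of all tested genes, of which 33.2% were lower. IGFBP2, which binds the growth factors outside the cell, rose from 2.09 and 1.67 to 21.0 and 20.5 CPM (3.47 ± 0.15), alongside the receptor IGF1R above. STC2, an inhibitor of the protease that frees the growth factors, fell from 20.2 and 18.6 to 0.619 and 0.536 (-5.04 ± 0.25), and so did IGFBP4, another binding protein (-1.42 ± 0.11).

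In the BCL2 family 10 of 16 tested were lower and 2 higher (median -0.23), among them both protective and killing members: BCL2A1 (-1.94 ± 0.12) and MCL1 (295 and 287 CPM against 187 and 193; -0.61 ± 0.03) on one side, BMF (-1.20 ± 0.05) and PMAIP1 (-1.33 ± 0.03) on the other. In the MYC network 7 of 14 were higher and 5 lower (median 0.09). MXD4, an antagonist that competes for MAX, rose from 29.7 and 29.2 to 60.2 and 55.5 CPM (0.98 ± 0.05), and MYCL, a MYC relative, fell (5.16 and 5.95 against 0.391 and 1.03; -3.03 ± 0.30). MAX itself did not pass (0.04 ± 0.04; adjusted p = 0.4).

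Structural genes split by family member. Of 11 tested tubulins 7 were lower and 3 higher (median -0.30). TUBA1A, an alpha-tubulin, stood at 274 and 269.7 CPM with SCR, 12 and 13.2 with ZIP and 45.3 in untransduced cells (-4.43 ± 0.05), and the beta-tubulin TUBB6 at 13.1 and 14.6 against 2.12 and 2.23 (-2.67 ± 0.15). The near-identical TUBA1B (338 and 337 CPM against 320.0 and 319.5; -0.07 ± 0.03) and TUBA1C (0.28 ± 0.04) changed little, and in opposite directions; reads may be split between these copies. Of 22 S100, annexin and galectin genes 15 were lower and 4 higher (median -0.51). LGALS1, galectin 1, a lectin that dampens immune cells, went from 259 and 255 to 18.4 and 17.1 CPM, with 8.59 untransduced (-3.84 ± 0.04). S100A10 (-3.38 ± 0.11) and its partner ANXA2 (33.9 and 37.2 against 7.53 and 8.5; -2.15 ± 0.08) fell together, S100A4 fell (244 and 239 against 59.7 and 54.9; -2.07 ± 0.04), and LGALS9 rose (0.54 ± 0.03).

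Of 24 tested actin cytoskeleton and filament genes 18 were lower and 4 higher (median -0.38). The intermediate filament gene VIM went from 319 and 318 CPM to 129 and 123 (-1.34 ± 0.03), lamin A/C, LMNA, from 337 and 337 to 132 and 131 (-1.35 ± 0.03), and the actin-severing protein gelsolin, GSN, from 124 and 122 to 53.7 and 52.2 (-1.21 ± 0.03). The bulk components moved little: ACTB rose by 0.11 ± 0.01 and the crosslinker FLNA by 0.20 ± 0.02. Of 16 tested integrin chains 8 were lower and 5 higher (median -0.37). Over all tested genes 33.2% were lower and 32.2% higher, so the rises were near that share. ITGAX, the CD11c chain of dendritic cells and macrophages, fell from 33.8 and 33.0 to 1.99 and 2.19 CPM (-4.00 ± 0.13), and ITGA6, a laminin-binding chain of progenitors, rose from 26.4 and 24.9 to 79.1 and 87.1 (1.70 ± 0.05). Of 16 tested metalloproteinases and inhibitors 13 were lower and 2 higher (median -1.46). The collagenase activator MMP14 (55.4 and 55.0 CPM against 8.24 and 8.83; -2.69 ± 0.07), the gelatinase MMP9 (19.1 and 20.4 against 1.27 and 1.11; -4.03 ± 0.18) and both inhibitors TIMP1 (-1.45 ± 0.06) and TIMP2 (-1.90 ± 0.07) fell. MMP2, the other gelatinase, went the other way, from 16.1 and 16.4 CPM with SCR and 22.9 in untransduced cells to 112 and 114 with ZIP (2.80 ± 0.05).

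**Figure D4:**
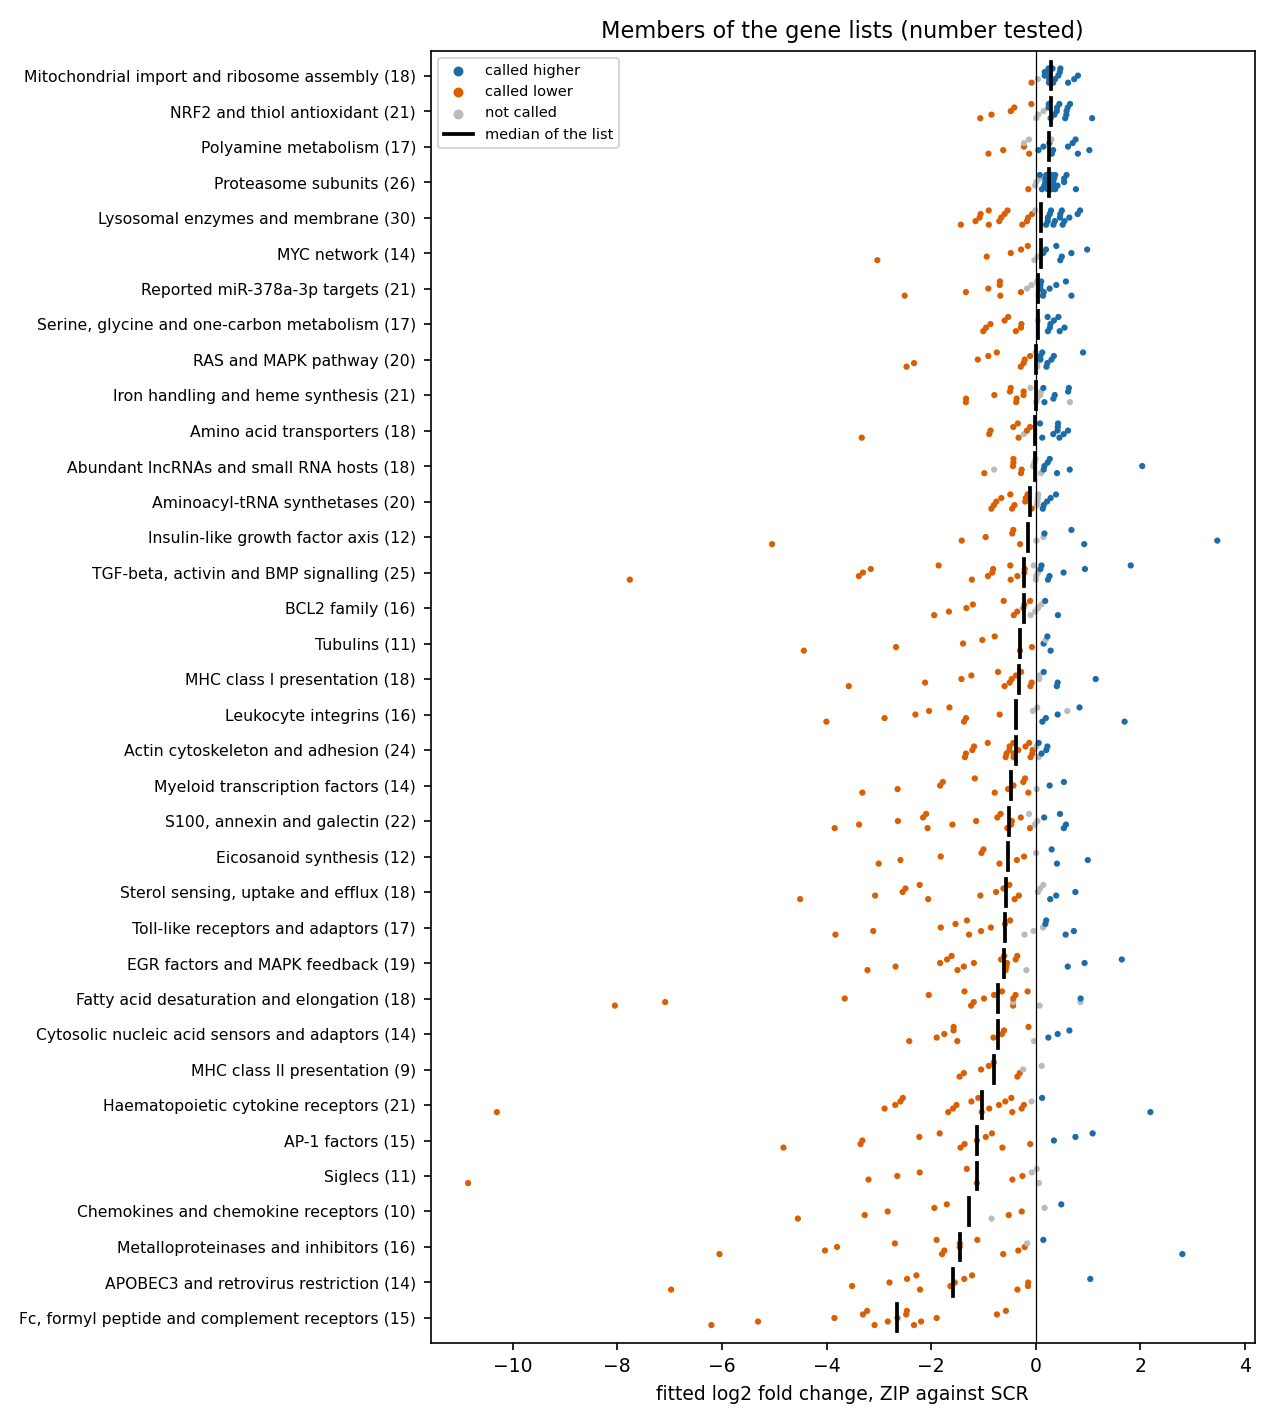
Log2 fold change (ZIP over SCR, horizontal axis) of every tested member of the gene lists drawn, 1 row a list, dots coloured by call and a black bar at each list's median. Fc and complement receptors (median -2.64) and restriction factors (-1.59) lie far to the left; mitochondrial import (0.29), NRF2 and thiol genes (0.28), polyamine genes (0.26) and proteasome subunits (0.25) lie to the right.

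Of 17 polyamine genes 10 were higher and 4 lower (median 0.26). ODC1, which makes putrescine at the pathway's entry, went from 329.5 and 329.9 CPM to 672 and 666 (1.02 ± 0.02), SRM, spermidine synthase, from 159 and 155 to 281 and 266 (0.80 ± 0.03), and AMD1, which supplies the aminopropyl groups, rose as well (0.62 ± 0.03). The catabolic enzymes SMOX (-0.91 ± 0.08) and SAT1 (108 and 111 CPM against 68.7 and 73.5; -0.62 ± 0.03) fell, so in this list the synthetic and the catabolic enzymes named moved in opposite directions. Of 26 tested proteasome subunit genes 22 were higher and 1, PSMD4, lower (median 0.25). None reached 2-fold: PSMD11, a lid subunit, rose by 0.59 ± 0.03. Of 18 genes of mitochondrial import and ribosome assembly 16 were higher (median 0.29), among them the mitochondrial RNA polymerase POLRMT (70.7 and 70.8 CPM against 125 and 121; 0.80 ± 0.03) and the small-subunit protein MRPS2 (0.73 ± 0.04). Its only fall, TIMM17A (-0.08 ± 0.03), was lost without SCR 1, without SCR 2 or without ZIP 2.

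Of 21 tested NRF2 and thiol antioxidant genes 13 were higher and 5 lower (median 0.28), 3 lower without SCR 1 or without ZIP 2. NFE2L2, which encodes NRF2 itself, fell from 86.7 and 87.0 CPM to 42.1 and 40.8, with 105 in untransduced cells (-1.06 ± 0.04), so ZIP was the lowest group. GCLM, the regulatory subunit for glutathione synthesis and a known target of NRF2, rose from 33.9 and 31.2 to 64.9 and 72.6, with 29.7 untransduced (1.08 ± 0.06), and TXNRD1, thioredoxin reductase, and GSTP1, a glutathione transferase, rose by 0.61 ± 0.03 and 0.65 ± 0.03. GPX1, the selenium-dependent peroxidase, fell from 509.8 and 523 to 298 and 274 (-0.85 ± 0.03). In iron handling and heme synthesis 6 of 21 were higher and 9 lower, with a median of 0.01 that changed sign with library totals and with upper quartile factors. The ferritin chains moved apart: FTH1, the ferroxidase chain, fell from 65.1 and 71.5 CPM to 26.9 and 27.0 (-1.34 ± 0.05) and FTL, the light chain, rose from 2489 and 2531 to 3273 and 3166 (0.36 ± 0.02). FTH1 has many processed copies that could take its reads.

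Lysosomal genes divided evenly, with 15 of 30 higher and 14 lower (median 0.09). The carboxypeptidase CTSA (168 and 175 CPM against 315 and 299; 0.85 ± 0.03), the mannosidase MAN2B1 (0.80 ± 0.03) and LAMP1, a membrane glycoprotein (0.64 ± 0.03), rose. The sialidase NEU1 (77.9 and 78.2 against 38.3 and 35.3; -1.07 ± 0.04), the cathepsins CTSZ (-1.15 ± 0.04) and CTSS (-0.90 ± 0.03), and TFEB, a transcription factor of lysosomal genes (-1.43 ± 0.12), fell. CTSA and NEU1, which work in 1 protein complex, thus moved in opposite directions. In serine, glycine and folate metabolism 8 of 17 were higher and 8 lower, with a median of 0.04 that changed sign with library totals. The mitochondrial folate enzyme MTHFD2 (516 and 504 CPM against 254 and 254; -1.0 ± 0.03) and the serine synthesis enzymes PHGDH (-0.87 ± 0.03) and PSAT1 (-0.60 ± 0.03) fell, while its cytosolic relative MTHFD1 (0.43 ± 0.03) and CAD, which starts pyrimidine synthesis (242 and 247 against 357 and 357; 0.55 ± 0.03), rose. Of 20 aminoacyl-tRNA synthetases 11 were lower and 5 higher (median -0.12), beside 33.2% and 32.2% of all tested genes. AARS (-0.85 ± 0.03) and TARS (-0.80 ± 0.03) fell, and FARSA (0.39 ± 0.03) and FARSB (0.28 ± 0.03), the subunits of 1 enzyme, rose together. Of 18 amino acid transporters 9 were higher and 8 lower (median -0.02).

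Transcripts of the mitochondrial genome did not move as 1 block. All 13 messenger RNAs were higher in ZIP (median 0.67), from 0.40 ± 0.01 for MT-CO1, a cytochrome oxidase subunit, to 1.10 ± 0.03 for MT-ND4L, a complex I subunit, and 9 of 12 tested transfer RNAs were higher and none lower (median 0.79). The large ribosomal RNA MT-RNR2 went the other way, from 6590 and 7039 CPM with SCR to 3937 and 4131 with ZIP, with 7483 in untransduced cells (-0.75 ± 0.02). MT-RNR1, the small ribosomal RNA, read 616 and 731 in SCR, 602 and 686 with ZIP and 654 in untransduced cells and did not pass (-0.06 ± 0.05). The ZIP libraries were thus lowest of all for MT-RNR2. Among other RNA classes, 24 of 48 tested small nucleolar RNAs were higher and 1 lower (median 0.74). Their summed levels were 35.8 and 38.1 CPM with SCR, 59.1 and 58.1 in ZIP and 54.5 in untransduced cells. Many of them rest on few counts near the floor, such as SNORD42B at 0.197 and 0.117 CPM with SCR and 0.521 and 0.495 with ZIP. Some of the rises, among them SNORD42B, SNORD69 and SNORA55, passed the filter on low counts only through ZIP. The filter thus has a part in the number of rises. Of 18 tested long noncoding RNAs and small RNA hosts 7 were higher and 6 lower (median -0.02). MIR17HG, the host of the miR-17-92 cluster, rose from 1.38 and 1.01 CPM to 5.08 and 4.66, with 14.8 in untransduced cells (2.03 ± 0.21), and GAS5, a host of small nucleolar RNAs, fell from 364 and 364 to 267 and 269 (-0.44 ± 0.03).

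Some of the genes that fell were neighbours along the genome, though most were not. With tested genes placed in order of their coordinates (GENCODE 29), 66 runs of at least 3 consecutive genes, each at least 2-fold lower in ZIP, held 227 of the 1556 placed genes that fell that far, while 955 fell without such a neighbour. Rises of that size gave 4 runs with 13 of 410 placed genes. Falls were also more numerous, at 11.0% of tested genes against 3.13% for rises. How many runs such numbers would give by themselves was not tested. The runs of falls, and the genes named in them, were picked after the values had been seen and are given with no test. With a minimum count of 50 in the filter, 21 runs of falls were left. The longest, at chr1:161505430-161678654, held 7 genes: FCGR2A, HSPA6, FCGR3A, FCGR2C, HSPA7, FCGR3B and FCGR2B, with a median of -3.85. These are copies of 2 gene families, between which reads may be split. A run of 6 at chr17:74424851-74747335 ran from GPRC5C through 4 genes of the CD300 family of myeloid immunoglobulin-like receptors to RAB37 (median -2.88); CD300A, an inhibitory member, went from 48.6 and 48.5 CPM to 5.38 and 5.2 (-3.19 ± 0.09). At chr6:31572054-31592985 the 5 neighbours LTA, TNF, LTB, LST1 and NCR3 fell, TNF, the inflammatory cytokine, from 78.7 and 77.6 to 25.7 and 25.4 (-1.61 ± 0.05). At chr7:27162435-27200106 the run was HOXA9, HOXA10, HOXA11, HOXA11-AS and HOXA13, body-pattern and leukaemia-associated homeobox genes at low levels (HOXA10 5.79 and 5.44 CPM against 2.18 and 1.86; -1.46 ± 0.16). At chr19:54532692-54670359 it held 4 genes of leukocyte immunoglobulin-like receptors after KIR3DX1, among them LILRB4 (46.3 and 46.3 against 6.91 and 6.31, -2.80 ± 0.08). At chr10:69269984-69633599 it held 5 genes with HK1, the housekeeping hexokinase (40.4 and 39.5 against 13.8 and 12.1, -1.61 ± 0.07). The other genes of the HK1 run, TSPAN15, NEUROG3, AL450311.2 and FAM241B, rest on few counts. None of them was above 1.26 CPM in any vector library. Some members of the runs passed the filter on low counts only through SCR. Examples are FCGR3A (12 and 16 counts with SCR, 1 and 3 with ZIP) and HOXA9 (22 and 20 against 4 and 3).

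The desaturase locus was 1 of these runs. At chr11:61792980-61967660 the 6 neighbours FADS2, FADS1, FADS3, RAB3IL1, BEST1 and FTH1 each fell at least 2-fold (median -2.58). From DAGLA to FTH1, neighbours named after their values were seen, 9 of 10 tested genes were lower, 8 of them by at least 2-fold. DAGLA, which makes an endocannabinoid, went from 4.84 and 5.25 CPM to 0.587 and 0.495 (-3.19 ± 0.27) and MYRF, a membrane-bound transcription factor, from 4.84 and 4.94 to 1.04 and 1.28 (-2.08 ± 0.20). FEN1, the flap endonuclease of DNA replication, which lies among them, fell only from 97.0 and 94.4 to 74.2 and 75.5 (-0.35 ± 0.03), and TMEM258, a subunit of oligosaccharyltransferase, did not pass (-0.12 ± 0.07). Genes of different function thus fell side by side, with FEN1 and TMEM258 between them nearer to their SCR level. In the annotation MYRF overlaps TMEM258, FEN1 overlaps FADS2 and BEST1 overlaps FTH1. With strand use not given, reads in the shared stretches cannot be told apart, so these are not separate readings throughout. RAB3IL1 rests on 18 and 14 counts with SCR against 10 and 2 with ZIP.

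Whole chromosomes were offset as well. Among 8803 protein-coding genes at 10 CPM or more the median log2 fold change was 0.04, but it was -0.14 on chromosome 1 (904 genes), -0.09 on chromosome 2 (594), -0.23 on chromosome 5 (402) and -0.16 on chromosome 6 (454). The other 19 chromosomes lay between 0.04 (chromosome 14) and 0.16 (chromosome 22). On chromosome 5, 63.2% of genes were lower and 16.2% higher, and on the 4 chromosomes together 54.7% were lower and 22.9% higher, against 28.3% and 49.2% on the others. The 4 were singled out after their values were seen, so this is a description without a test. The offset spread along their length: in 25 Mb bins holding at least 20 genes, the median was above 0 in 1 of 9 bins on chromosome 1 and in 0 of 10, 0 of 8 and 0 of 7 on chromosomes 2, 5 and 6, and in 79 of 87 bins on the other 19 chromosomes. Against the untransduced library, the median log2 difference of genes on the 4 chromosomes was 0.18 and 0.18 in SCR and 0.05 and 0.06 in ZIP, and of genes on the others -0.13 and -0.14 in SCR and -0.04 and -0.04 in ZIP. For these pooled medians the offset was larger in SCR than in ZIP, with the same sign. This did not hold for every chromosome: on chromosome 6 the medians were 0.15 and 0.17 in SCR but -0.0089 and -0.0064 in ZIP. As the 4 were picked for lower values in ZIP, SCR standing above ZIP on them follows from that choice. PPARGC1B, with miR-378a in its intron, and CD14 lie on chromosome 5, where the median was -0.23.

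**Figure D5:**
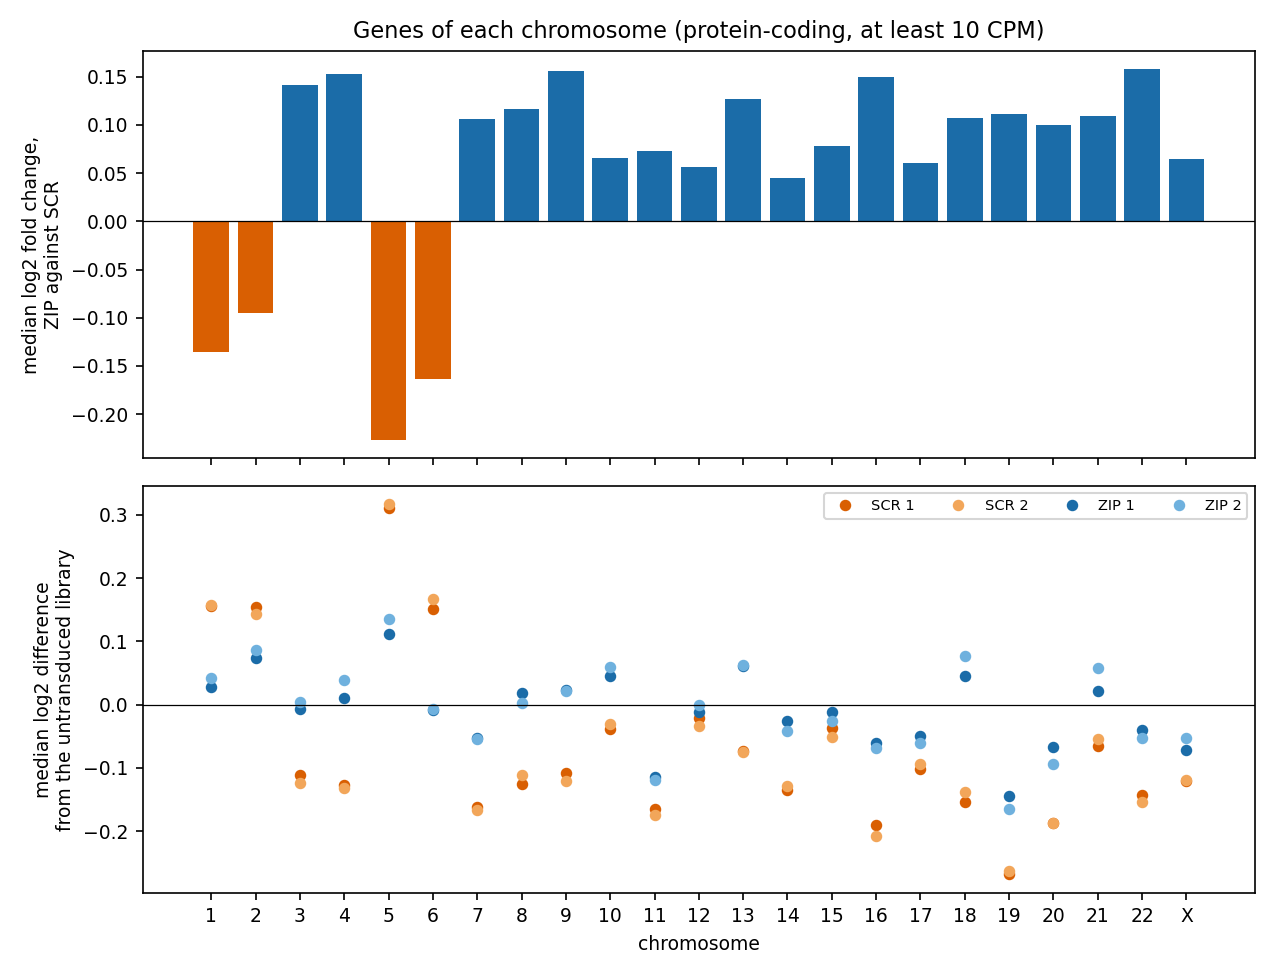
Top: median log2 fold change, ZIP over SCR, of protein-coding genes at 10 CPM or more on each chromosome. Bottom: median log2 difference of each of the 4 vector libraries from the untransduced library on the same chromosomes. Chromosomes 1, 2, 5 and 6 are below 0 in the top panel (-0.09 to -0.23) and, in the bottom panel, above 0 in both SCR libraries and lower in ZIP, where chromosome 6 lies just below 0.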

How the data were processed

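RNA was sequenced from HL60 cells with the ZIP vector (2 libraries), with the SCR vector (2) and without a vector (1), and samples were grouped by title and treatment label. The authors deposited 1 table of raw counts per gene, whole numbers without normalization, per the file headers. Bowtie2 and featureCounts are named, per the submitters' processing notes, whereas the series' design text names CASAVA 1.8.2, TopHat 2, Cufflinks and HTSeq; which of them made the table, and with what genome build, annotation and strand setting, remains not given in the sources used here. The labels name a small RNA library kit and total RNA, although counts fell mainly on messenger RNAs. No column belonged to another series (0 columns) and no row lacked a gene identifier (0 rows). Coordinates and gene types are from GENCODE 29 (GRCh38), matched by gene identifier.

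Genes were kept with edgeR's filterByExpr (minimum count 10, minimum total 15) in the 4 vector libraries, scaled by TMM, and tested with edgeR's quasi-likelihood test (edgeR 4.0.16, limma 3.58.1, R 4.3.3) for ZIP against SCR without a covariate, which leaves 2 residual degrees of freedom among libraries. P-values were adjusted by the Benjamini-Hochberg method over all 14643 genes, with a threshold of 0.05, and a second test (glmTreat) asked for a change beyond 2-fold. "Higher", "lower", "rose" and "fell" refer to genes past the threshold. CPM use TMM-scaled library sizes, and fold changes carry the standard error of the fitted coefficient. Where a group held no count, 3 counts over both its libraries served as floor, which covers counting error only. The code was tested on simulated data.

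The members and gene lists were chosen with earlier results of these data known. Genes named are the host gene, the 15 largest rises and falls at 10 CPM or more, the 10 largest rises and falls in CPM, any member of lists with up to 15 tested members, in longer lists those of smallest p and largest change, genes without a count in 1 group, and all cell type markers; others are said to be chosen after their values were seen. Some genes that this rule names are not reported here. Alternatives were other scalings (library totals, DESeq2's size factors, upper quartile), DESeq2 1.42.0, no filter, a minimum count of 50, all 5 libraries in the fit, each library left out, and a replicate block. The replicate numbers did not pair the libraries: the correlation of deviations of like-numbered libraries was 0.0161, with 2 pairs, and no label ties a number to a shared culture.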

Additional observations from a re-analysis of the deposited data

How the results depend on the processing

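The counts of genes past the threshold kept within 1.5 times of the reported ones in 122 of 126 values over the 10 summary counts. The 50 genes followed singly kept direction and call in 600 of 600. They were the host gene and the largest rises and falls past the threshold, so their stability follows largely from that choice. It does not extend to every gene named, since some calls given above were lost in a setting. With a minimum count of 50 in the filter (11513 genes tested) the genes changed at least 2-fold numbered 1279, of which 226 were higher and 1053 lower, as fewer low genes enter. Library totals in place of TMM moved the all-gene median to -0.06 and the split of calls from 49.2% higher to 42.3%, with 4026 higher and 5492 lower. DESeq2 called 7644 genes. Leaving out 1 library, where the lone library of a group is assumed to vary like the other group, gave 8707 to 9088 calls (4236 to 4536 higher, 4425 to 4552 lower), 1997 to 2075 of at least 2-fold, 1027 to 1083 beyond 2-fold by glmTreat and 543 to 559 called list members. With the replicate number as a block (1 residual degree of freedom) 9709 genes passed against 9571 without it, 2088 of them at least 2-fold; as the numbers are only shared labels, this is no paired result.

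The difference in median between genes with an 8mer seed match and genes without a match, 0.04, was 0.196 among the shortest 3′ untranslated regions when genes were cut into 3 equal groups by length (31 genes with an 8mer), -0.087 in the middle group and 0.055 in the longest; this split was chosen after seeing the data and the cause was not tested. Outside chromosomes 1, 2, 5 and 6, also a choice made after seeing the data, 4016 of 10855 tested genes were higher and 3036 lower; the chromosomes left out had been singled out for their falls. List counts stayed within 1.5 times in 1087 of 1116 values. With 2 libraries a group, the depth limits genes near the floor of 3 counts, where only large differences can be seen.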
